A study of Caenorhabditis elegans with 20 samples.

Results

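The 2 ferritin genes of *Caenorhabditis elegans*, *ftn-1* and *ftn-2*, and the 3 *smf* genes for metal importers, *smf-1*, *smf-2* and *smf-3*, were followed over 4 genotypes. Every probe set annotated to 1 of these 5 genes was taken, which gave 7 of the 22548 worm probe sets on the array, for 5 of the 17138 genes they name. Of the 7, 6 carried 1 gene symbol. The remaining probe set, 175864_at, is annotated to both *smf-3* and its neighbour *daao-1*, and its signal cannot be assigned to either gene.

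The study compared whole adult animals on 20 Affymetrix arrays. Each genotype had 5 biological replicates, with 8 plates of animals pooled for a replicate. The genotypes were *daf-16*(mgdf50); *daf-2*(e1370), *daf-2*(e1370), *daf-16*(mgdf50); *daf-2*(m577) and *daf-2*(m577), and all 4 also carried *glp-4*(bn2). The receptor for insulin-like peptides is the product of *daf-2*, e1370 and m577 are reduction-of-function alleles of it, and mgdf50 is a deletion in *daf-16*, which encodes the FOXO transcription factor held back by this receptor. *glp-4*(bn2) is a temperature-sensitive mutation that makes animals sterile at the higher temperature. Eggs hatched at 20 °C, animals grew at 15 °C, were moved to 25 °C when most were L4 larvae, and were collected as sterile adults of 1 day. No strain with a wild-type *daf-2* or a wild-type *glp-4* was among the 4, so the loss of *daf-16* is measured only in *daf-2* mutants. Below, "without *daf-16*" means a strain with mgdf50, and "with *daf-16*" means the strain of the same *daf-2* allele that lacks this deletion.

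Ferritin is a hollow protein shell that takes up ferrous iron, oxidises it and stores it in a form that does not drive the production of radicals. *C. elegans* has *ftn-1*, expressed mainly in the intestine, and *ftn-2*, expressed more widely. Both are lowered when iron is scarce, through the hypoxia factor HIF-1. Intestinal GATA factors such as ELT-2 act at the *ftn-1* enhancer. The SMF proteins are NRAMP-type transporters, related to mammalian DMT1, which carry ferrous iron, manganese and other divalent metals into cells, and SMF-3 acts at the intestinal surface that faces the gut lumen. RefSeq (assembly WBcel235) places *ftn-1* on chromosome V, *ftn-2* on chromosome I, *smf-3* on chromosome IV and *smf-1* and *smf-2* beside each other on chromosome X.

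Values are deposited expression levels on the log2 scale, where a difference of 1 is a doubling. The 15 control probe sets designed to Bacillus genes ranged from 4.21 to 6.29 with a median of 4.57, and this range served as the background level. Array medians were 6.41 to 6.57. Mean sperm marker levels were lowest on replicate 5 of e1370 without *daf-16* (7.70), replicate 4 of e1370 with *daf-16* (8.44) and replicate 3 of m577 with *daf-16* (7.67), and results were also computed without these 3 arrays. Markers of intestine, body wall muscle, hypodermis, neurons, sperm and oocytes had mean list levels from 7.67 to 11.24 over the arrays, above the background range, although 5 of the 85 markers measured had all 4 genotype means inside it. Transcripts of each of these tissues, sperm and oocyte markers included, were measured in animals labelled sterile. Of the 4 *daf-16* probe sets, 175678_at fell by 0.76 ± 0.19 and 181992_s_at by 0.69 ± 0.17 without *daf-16* (mean difference over both alleles ± SE, limma adjusted p = 0.0174 and 0.0175). All 4 genotype means of 181992_s_at, and that of 175678_at in e1370 without *daf-16*, lay inside the background range, so the sizes of these falls are not well determined. For 175823_s_at the difference was -0.07 ± 0.27 and for 188176_s_at it was -0.38 ± 0.25 (adjusted p = 0.93 and 0.528). The sources used here do not say which of the 4 lie inside the deletion.

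*ftn-1* was far lower in both strains without *daf-16*, while neither *ftn-2* probe set fell with it. In e1370 the main *ftn-2* probe set rose by a small amount without *daf-16*, and in m577 neither *ftn-2* probe set passed the threshold. None of the *smf* probe sets passed it in any of the 6 comparisons made. The differences below are without minus with *daf-16*, each with its standard error (SE), from a linear model in limma over all 20 arrays. P-values were adjusted by the Benjamini-Hochberg method over all 22548 probe sets, and a probe set was called at an adjusted p under 0.05.

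**Figure D1:**
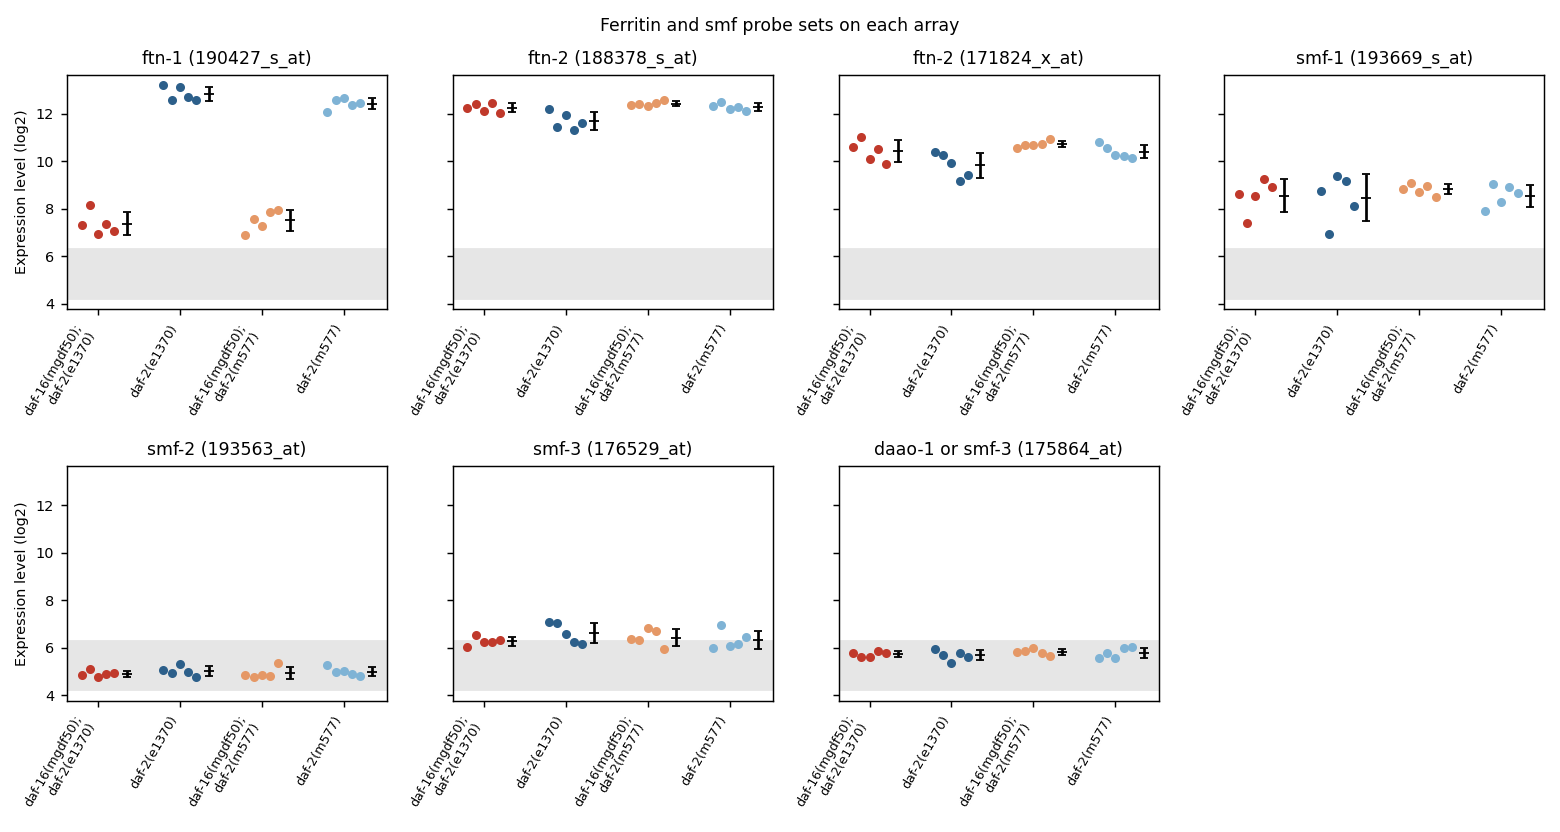
Level (log2) of each of the 7 probe sets on each of the 20 arrays, by genotype. Points are single arrays, black bars are the mean ± SD of 5 arrays, and the grey band is the range of the Bacillus controls (4.21 to 6.29). *ftn-1* is the only probe set whose arrays without *daf-16* (6.89 to 8.17) stand apart from those with it (12.10 to 13.21) in both alleles, and *smf-2* and 175864_at stay inside the band.

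*ftn-1* is measured by probe set 190427_s_at. Its levels in e1370 without *daf-16* were 7.31, 8.17, 6.94, 7.36 and 7.07 in replicates 1 to 5, against 13.21, 12.57, 13.14, 12.71 and 12.59 in e1370 with *daf-16*. Its levels in m577 without *daf-16* were 6.89, 7.56, 7.30, 7.85 and 7.96, against 12.10, 12.59, 12.65, 12.37 and 12.45 in m577 with *daf-16*. In each allele every array without *daf-16* was below every array with it, and the levels without *daf-16* were still above the background range. Such separation of 5 arrays from 5 was seen for 3.78% of all probe sets in e1370 and for 6.66% in m577, and among the 7 probe sets for *ftn-1* alone in each.

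In e1370 *ftn-1* fell by 5.47 ± 0.23 without *daf-16* (95% interval -5.96 to -4.99), a 44.5-fold lower level (limma, adjusted p = 2.76e-11). In m577 it fell by 4.92 ± 0.23 (interval -5.40 to -4.44), a 30.3-fold lower level (adjusted p = 6.79e-10). By size of the difference it ranked 6 of 22548 probe sets in e1370 and 3 of 22548 in m577, and by p-value it ranked 4 in e1370 and 1 in m577. The 3' minus 5' difference of the control genes, a sign of RNA quality, was 1.72 to 2.32 in m577 without *daf-16* and 1.19 to 1.61 with it, with no overlap. With this measure as a covariate *ftn-1* still fell by 4.54 ± 0.34 in m577 (limma, adjusted p = 2.19e-06). Set against each other, the falls had a difference of -0.55 ± 0.32, which did not pass the threshold (adjusted p = 0.961). The order of the 4 genotype means was e1370 with *daf-16* (12.84 ± 0.31), m577 with *daf-16* (12.43 ± 0.22), m577 without it (7.51 ± 0.43) and e1370 without it (7.37 ± 0.48, all SD, n = 5). Neighbours with the same *daf-16* state overlapped and did not differ past the threshold. Since e1370 with *daf-16* serves in several of these comparisons, the comparisons are not independent of each other.

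*ftn-2* is measured by 188378_s_at, the brighter probe set and the one that stands for the gene here, and by 171824_x_at. The suffix of the second marks probes that can also bind other transcripts. The first, like those of *ftn-1* and *smf-1*, has the suffix s_at, and the specificity of these probe sets was not tested here. The levels of 188378_s_at were 12.25, 12.43, 12.11, 12.45 and 12.02 in e1370 without *daf-16*, against 12.21, 11.43, 11.94, 11.31 and 11.63 in e1370 with *daf-16*. In m577 they were 12.37, 12.41, 12.33, 12.45 and 12.59 without *daf-16*, against 12.34, 12.50, 12.20, 12.30 and 12.10 with it. The groups overlapped in both alleles, in e1370 through replicate 1 with *daf-16*, and the 5 arrays of e1370 with *daf-16* included the 4 lowest values of all 20.

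In e1370 this probe set rose by 0.55 ± 0.15 without *daf-16*, a 1.46-fold higher level (limma, adjusted p = 0.0368). The call was lost in 7 of the 20 fits that left out a single array, where the differences were 0.45 to 0.55 and the adjusted p was 0.0503 to 0.111. These were the fits without replicate 2, 4 or 5 of e1370 with *daf-16*, replicate 1, 2 or 4 of e1370 without it, or replicate 4 of m577 without it. It was also lost without the 3 arrays lowest in sperm markers (0.51, adjusted p = 0.0921). In m577 the difference was 0.14 ± 0.15 (adjusted p = 0.681, interval -0.17 to 0.45), and over both alleles it was 0.34 ± 0.10 (adjusted p = 0.0555). The difference between the alleles in this effect was 0.41 ± 0.21 (adjusted p = 0.92), so the rise in e1370 is not shown to differ from that in m577.

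The other *ftn-2* probe set gave differences in the same direction that did not pass the threshold. The levels of 171824_x_at were 9.87 to 11.03 (median 10.53) in e1370 without *daf-16* and 9.17 to 10.38 (median 9.92) with it. In m577 they were 10.57 to 10.92 (median 10.71) without *daf-16* and 10.15 to 10.80 (median 10.28) with it. It was higher by 0.59 ± 0.23 in e1370 (adjusted p = 0.247) and by 0.32 ± 0.23 in m577 (adjusted p = 0.562). The change of the main probe set relative to this one was -0.04 in e1370 and -0.18 in m577 (exact permutation test of 5 arrays against 5, 2-sided, adjusted p = 0.944 and 0.413 over 4 comparisons).

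**Figure D2:**
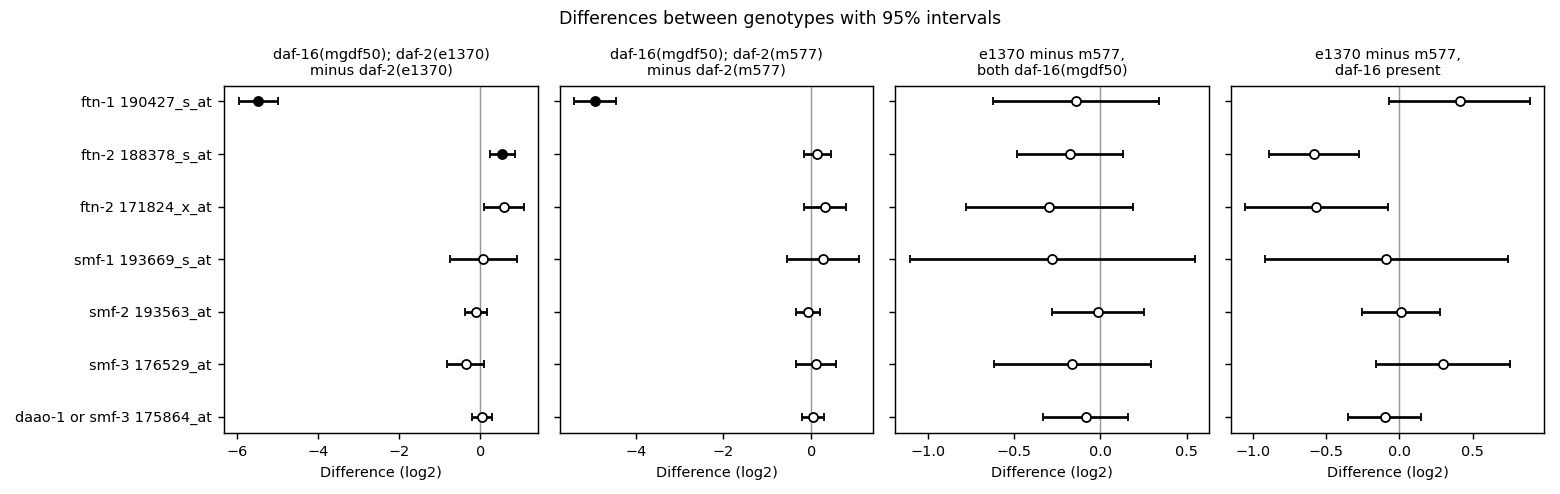
Difference in level (log2) between genotypes for the 7 probe sets, with 95% intervals from limma, where n = 5 arrays per genotype. Filled points passed an adjusted p under 0.05, and each panel has its own axis. *ftn-1* lies at -5.47 and -4.92 in the left panels, and *ftn-2* 188378_s_at, at 0.55, is the only other filled point.

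Of the 7 probe sets, 1 was called over both alleles, against 6.32% of all probe sets (*ftn-1*, lower). In e1370 2 were called, against a background of 4.38% (*ftn-1* lower and *ftn-2* 188378_s_at higher), and in m577 1 was called, against 1.79% (*ftn-1*). The median difference over the 7 was 0.04 over both alleles, 0.05 in e1370 and 0.10 in m577, beside -0.02, 0.002 and -0.03 over all probe sets. With so few members, a single call decides the share.

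To set the ferritin genes against each other, the *ftn-1* level minus the *ftn-2* level (188378_s_at) was taken on each array. Levels of different probe sets are not comparable, so the sign and size of this value have no meaning alone, and only its change between genotypes was read. In e1370 without *daf-16* the values were -4.95, -4.27, -5.18, -5.08 and -4.95, against 0.996, 1.138, 1.198, 1.403 and 0.955 in e1370 with *daf-16*. In m577 without *daf-16* they were -5.48, -4.86, -5.03, -4.60 and -4.64, against -0.245, 0.086, 0.446, 0.077 and 0.351 in m577 with *daf-16*. Values without and with *daf-16* did not overlap in either allele.

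The ratio of *ftn-1* to *ftn-2* thus fell by 6.02 ± 0.18 on the log2 scale, or 65.0-fold, in e1370 and by 5.06 ± 0.20, or 33.4-fold, in m577 (difference ± SE, exact permutation test, 2-sided, p = 0.00794 in each, the smallest that 5 arrays against 5 allow, adjusted p = 0.0106 over 4 comparisons). The ratio also separated the alleles when *daf-16* was present. It was higher in e1370 than in m577 by 0.995 ± 0.15, a 1.99-fold difference, with no overlap between their arrays (exact permutation test, p = 0.00794, adjusted p = 0.0106). Neither gene alone passed the threshold in this comparison. *ftn-1* was higher in e1370 than in m577 by 0.41 ± 0.23 (limma, adjusted p = 0.426), and *ftn-2* differed the other way, by -0.58 ± 0.15 for 188378_s_at (adjusted p = 0.0568) and by -0.57 ± 0.23 for 171824_x_at (adjusted p = 0.249).

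Without *daf-16* the ratio averaged -4.88 ± 0.36 in e1370 and -4.92 ± 0.36 in m577 (SD, n = 5), with overlapping arrays and a difference of 0.036 ± 0.23 (exact permutation test, p = 0.897, adjusted p = 0.897). The fall of the ratio was larger in e1370 than in m577 by -0.96 ± 0.27, and this difference was tested after the values had been seen by exact permutation of the allele labels within each *daf-16* state (p = 0.0187, 63504 relabellings, 2-sided). With 171824_x_at in place of the main *ftn-2* probe set it was -0.82 and did not pass the threshold (exact permutation test, p = 0.0676). The value of -0.96 is the allele difference of 0.036 without *daf-16* minus that of 0.995 with it, so it is no separate result. The relabelling supposes no allele difference in either *daf-16* state, and does not test the change of the *daf-16* effect alone. In the difference between alleles with *daf-16* present, none of the 7 probe sets was called by limma, against 1.32% of all, and 2 had an unadjusted p under 0.05, both of them *ftn-2*. Without *daf-16* 0 of the 7 were called, against 0.00443% of all, and 0 had an unadjusted p under 0.05. The difference between the alleles in the effect of *daf-16* gave the same counts, 0 and 0, against 0.177%.

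**Figure D3:**
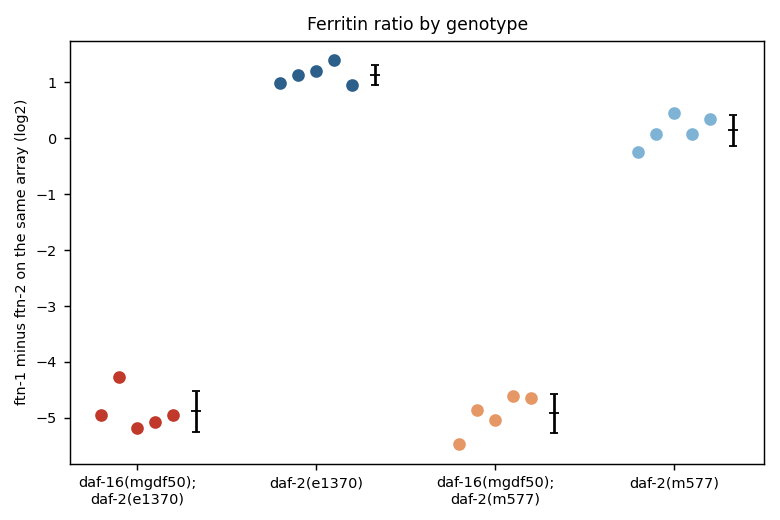
*ftn-1* level minus *ftn-2* level (190427_s_at minus 188378_s_at, log2) on each array, by genotype, with the mean ± SD of 5 arrays as black bars. The zero of the axis has no meaning because the probe sets differ. Arrays with *daf-16* lie at 0.955 to 1.40 in e1370 and -0.245 to 0.446 in m577, and arrays without it at -5.48 to -4.27 in both alleles.

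Intestinal transcripts moved between the same genotypes. Of 12 intestine markers, 8 rose and 1 fell without *daf-16* in e1370, with a median difference of 1.41. In m577 3 rose and 1 fell, with a median of 0.66. Of all probe sets, 4.38% were called in e1370 and 1.79% in m577, with medians of 0.002 and -0.03. The peptide transporter gene *pept-1*, the acid phosphatase gene *pho-1* and the sodium-proton exchanger gene *nhx-2* rose over both alleles by 2.95 ± 0.31, 2.54 ± 0.23 and 2.48 ± 0.29 (limma, adjusted p = 3.33e-06, 6.85e-07 and 1.61e-05). In e1370 with *daf-16* their means of 5.71, 5.60 and 5.41 lay inside the background range, so the sizes of these rises are not well determined. The gut esterase gene *ges-1* was the marker that fell, by 1.88 ± 0.23 (adjusted p = 2.73e-05), and *elt-2*, the intestinal GATA factor, differed by 0.10 ± 0.19 (adjusted p = 0.846). In bulk RNA, fewer cells of a type and less RNA per cell cannot be told apart.

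The mean level of the 12 markers ranged from 9.87 to 10.99 in e1370 without *daf-16* and from 8.67 to 9.44 with it, and from 10.37 to 11.08 in m577 without *daf-16* and from 9.25 to 10.38 with it. The *ftn-1* differences had the opposite sign to the marker median. The *ftn-2* differences had the same sign and were smaller. With the marker level as a covariate, added after the data were seen, the *ftn-2* difference in e1370 was 0.39 ± 0.26 and lost its call (188378_s_at, limma adjusted p = 0.417), while *ftn-1* still fell by 5.34 ± 0.41 (adjusted p = 1.78e-06). With *daf-16* present, all 12 markers were lower in e1370 than in m577 (-1.68 to -0.23, median -0.96), and 3 passed the threshold. Of all probe sets 1.32% passed it there, with a median of -0.05. With the covariate, the difference between these strains was -0.48 ± 0.20 for 188378_s_at and 0.33 ± 0.32 for *ftn-1* (limma, adjusted p = 0.208 and 0.61). The ratio was not tested with this covariate. The marker level itself differs between the genotypes, and its part in the *ftn-2* and ratio results was not tested beyond these fits.

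**Figure D4:**
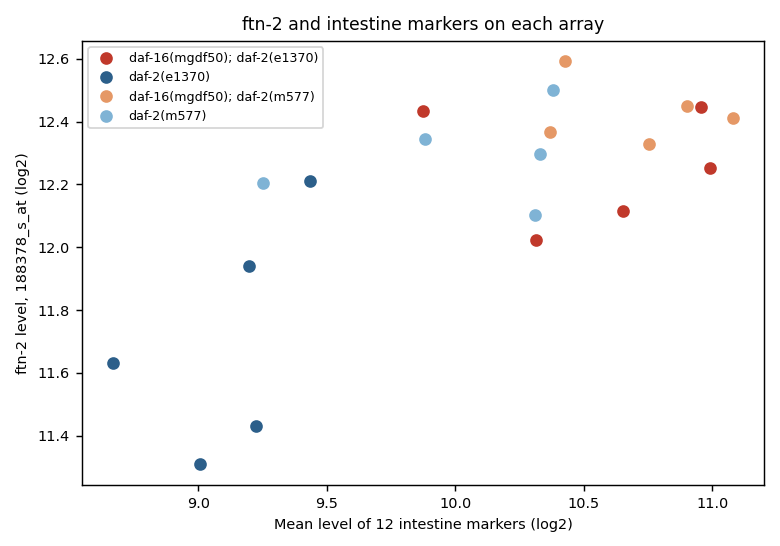
Level of *ftn-2* (188378_s_at, log2) against the mean level of 12 intestine markers (log2) on each of the 20 arrays, coloured by genotype. The 5 arrays of e1370 with *daf-16* (marker levels 8.67 to 9.44) lie at the left and hold the 4 lowest *ftn-2* values. Replicate 3 of m577 with *daf-16* also lies there, with a marker level of 9.25 and an *ftn-2* level of 12.20.

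The importer genes gave no call. *smf-1* is measured by 193669_s_at. Its levels in e1370 without *daf-16* were 8.62, 7.41, 8.53, 9.24 and 8.92, against 8.75, 6.94, 9.36, 9.18 and 8.12 in e1370 with *daf-16*. In m577 they were 8.83, 9.07, 8.73, 8.98 and 8.52 without *daf-16*, against 7.91, 9.03, 8.28, 8.92 and 8.66 with it. The groups overlapped widely in both alleles. The spread within genotypes was 0.65 (pooled SD), larger than for 81.7% of probe sets, and the lowest value in each e1370 strain was on replicate 2.

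In each of the 4 genotypes *smf-1* was lowest on the array with the smallest interquartile range, which was 2.17 on replicate 2 of e1370 without *daf-16*, 2.25 on replicate 2 of e1370 with it, 2.27 on replicate 5 of m577 without it and 1.97 on replicate 1 of m577 with it. The same held for 7.08% of all probe sets, and for 11.7% of the 5637 with the highest mean levels. Without these 4 arrays, left out after the data were seen, the *smf-1* difference over both alleles was 0.08 ± 0.18 (limma, adjusted p = 0.84).

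**Figure D5:**
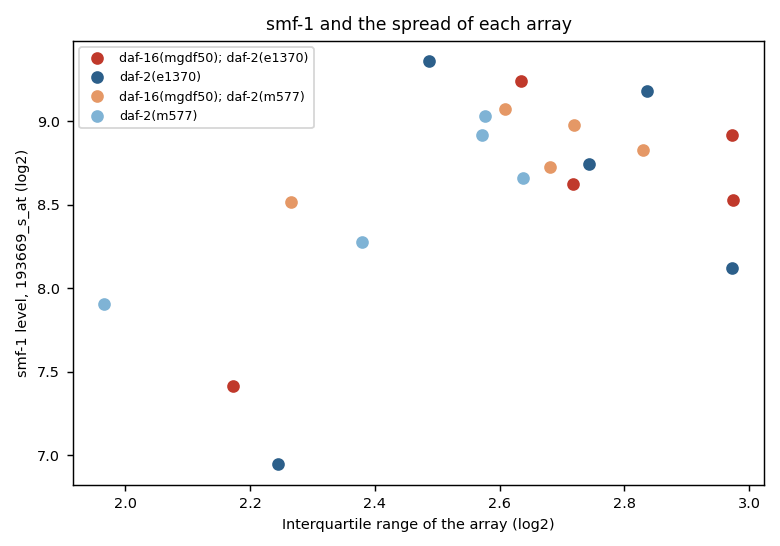
Level of *smf-1* (193669_s_at, log2) against the interquartile range of all worm probe sets on the same array (log2), for the 20 arrays, coloured by genotype. The lowest *smf-1* values, 6.94 and 7.41, lie on arrays with ranges of 2.25 and 2.17.

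Over both alleles *smf-1* differed by 0.17 ± 0.28 without *daf-16* (limma, adjusted p = 0.821), and the 95% interval of -0.41 to 0.75 does not exclude changes of up to 1.69-fold. With the intestine marker level as a covariate, added after the data were seen, the difference changed sign to -0.63 ± 0.46 over both alleles (adjusted p = 0.507) and to -1.02 ± 0.63 in e1370 (adjusted p = 0.388). It differed by 0.07 ± 0.39 in e1370 and by 0.27 ± 0.39 in m577 (adjusted p = 1 and 0.783). A missed threshold does not show that *smf-1* stayed level.

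*smf-3*, the intestinal importer, was dim. The levels of 176529_at in e1370 were 6.02, 6.53, 6.23, 6.23 and 6.31 without *daf-16*, against 7.06, 7.05, 6.59, 6.23 and 6.16 with it. In m577 they were 6.37, 6.30, 6.83, 6.70 and 5.94 without *daf-16*, against 5.98, 6.94, 6.08, 6.17 and 6.44 with it. Replicates 1 and 2 of e1370 with *daf-16* were the highest of all 20 arrays, and 4 of the 10 arrays without *daf-16* and 5 of the 10 with it lay inside the background range.

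The *smf-3* difference was -0.36 ± 0.22 in e1370 (limma, adjusted p = 0.728), 0.10 ± 0.22 in m577 (adjusted p = 0.857) and -0.13 ± 0.15 over both alleles (adjusted p = 0.75, interval -0.45 to 0.20). The probe set shared by *smf-3* and *daao-1* had levels from 5.36 to 6.02 over the 20 arrays, all inside the background range. Its difference over both alleles was 0.04 ± 0.08 (adjusted p = 0.853). *smf-2*, the neighbour of *smf-1*, had levels from 4.74 to 5.35 in 193563_at, all near the middle of the background range. Its difference over both alleles was -0.08 ± 0.09 (adjusted p = 0.72), and at this signal a change could not be seen.

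Genes of the wider iron pathway are given below, beside the 6.32% of all probe sets called over both alleles. Of 9 measured genes for iron export, mitochondrial iron and iron-sulfur clusters, none passed the threshold over both alleles, 1 had an unadjusted p under 0.05, and the median difference was 0.07. The largest differences were 0.41 ± 0.30 for *aco-1*, a cytosolic aconitase related to the mammalian iron regulatory protein, and -0.30 ± 0.14 for *iscu-1*, the scaffold of iron-sulfur cluster assembly (limma, adjusted p = 0.586 and 0.306). Of 6 heme transport genes 1 fell and none rose, with a median of 0.29. This was *hrg-9*, which fell by 0.53 ± 0.11 over both alleles (adjusted p = 0.00446) and had genotype means of 5.68 to 6.48, mostly inside the background range. It passed the threshold in e1370 (-0.79 ± 0.15, limma adjusted p = 0.00336) and not in m577 (-0.26 ± 0.15, adjusted p = 0.48).

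Of 10 genes of the HIF-1 pathway, 1 fell and none rose over both alleles, with a median of -0.02. The nuclear receptor gene *nhr-57*, a known target of HIF-1, fell by 0.67 ± 0.15 (limma, adjusted p = 0.00787), whereas *hif-1* itself differed by -0.18 ± 0.26 (adjusted p = 0.79). None of 10 transcription factor genes, *elt-2*, *hif-1* and *daf-16* among them, passed the threshold on the probe set that stood for it. None had an unadjusted p under 0.05, and the median difference over both alleles was 0.08. The largest differences in that list were 0.21 ± 0.32 for *skn-1* and 0.20 ± 0.26 for *hlh-30*, regulators of detoxification and of autophagy (adjusted p = 0.805 and 0.766). For *daf-16* this was 175823_s_at, given above.

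Of 20 zinc and copper transporter genes 2 rose over both alleles and none fell, with a median of 0.14. The zinc exporter gene *cdf-1* rose by 1.02 ± 0.28 and the ZIP family gene *zipt-2.3* by 0.33 ± 0.09 (limma, adjusted p = 0.0353 and 0.0368), and the 4 genotype means of *zipt-2.3* lay inside the background range. The medians of these 5 lists stand beside -0.02 for all probe sets, of which 3.63% fell and 2.69% rose.

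The genes most like each ferritin gene were found by Pearson correlation with its main probe set over the 20 arrays, given as a description. For *ftn-1* they were the claudin-like *clc-24* (r = 0.988), the superoxide dismutase gene *sod-3* (0.975), *Y69H2.3* (0.973), *D1086.9* (0.971) and *scl-20* (0.970), a gene for a secreted SCP-like protein. All 5 were lower without *daf-16*, over both alleles by 1.19 (*Y69H2.3*) to 5.76 (*D1086.9*), and the arrays these correlations run over fall into a group with and a group without *daf-16*. For *ftn-2* they were the epoxide hydrolase gene *ceeh-1* (r = 0.911), *C05D2.8* (0.875), the nuclease gene *nuc-1* (0.872), *Y40H7A.10* (0.867) and *Y105C5B.9* (0.865). All 5 had higher means without *daf-16* in both alleles, and *nuc-1* (0.99 ± 0.21, limma adjusted p = 0.00537) and *C05D2.8* (0.43 ± 0.12, adjusted p = 0.0324) passed the threshold over both alleles. No gene was among the 5 of both ferritin genes.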

How the data were processed

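Total RNA from whole adults was hybridised to 20 Affymetrix arrays, 5 per genotype. Per the labels' protocols, array images were reduced to probe values in MAS 5.0 and normalized jointly by RMA with the Affymetrix package 1.4.14, which gave the deposited log2 values. That the scale is log2 was read from the values. The interquartile range of the deposited values still differed between arrays, from 1.97 to 2.97, and the number of arrays limits precision.

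From these values, 22548 worm probe sets were fitted in limma 3.58.1 (R 4.3.3) with 1 mean per genotype, after 77 control probe sets were left out. Ratios on single arrays were tested by exact permutation in scipy 1.17.1. Gene names come from the platform annotation, which can be old, and 20744 symbols matched RefSeq. Of the probe sets, 20810 had 1 symbol, 843 several and 895 none.

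The probe set with the highest mean stood for a gene. Named were all members, the 5 genes best correlated with each ferritin gene, and up to 4 called genes of each pathway list or otherwise its 2 largest. *hif-1*, *elt-2* and the intestine markers were named outside this rule, after their values were seen. Members and lists were chosen with earlier results of these data known. The fit was tested on simulated data. Alternatives covered normalization, array weights, dim probe sets, replicate blocks, covariates and left-out arrays. No sequence is shown because no sequence table was used here.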

Additional observations from a re-analysis of the deposited data

Results flagged for a closer look

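Within a group of 5 arrays, the highest or lowest was looked at more closely when its gap to the nearest array exceeded 0.71 of the group's range. Of 32 groups tested, 2 met this, and chance gives about 1 in 20. *smf-2* was highest in replicate 5 of m577 without *daf-16*, at 5.352, a level inside the background range. The *ftn-1* minus *ftn-2* value was highest in replicate 2 of e1370 without *daf-16*, at -4.265, and still below every array with *daf-16*.

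The change of the *ftn-1* to *ftn-2* ratio without *daf-16* differed between the alleles by -0.959 on the log2 scale (exact permutation test, p = 0.0187), e1370 minus m577. This test was chosen after the data were seen, and it is not separate from the ratio difference between alleles with *daf-16* present.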

How the results depend on the processing

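The *ftn-1* fall without *daf-16* passed the threshold in all alternatives run, 33 over both alleles (-5.43 to -4.97), 34 in e1370 (-5.74 to -5.34) and 34 in m577 (-5.12 to -4.54). Of 1408 member differences under alternatives, 24 newly passed the threshold, 15 no longer passed and no called value changed sign, while 74 differences changed sign with neither value past the threshold. The *ftn-2* call in e1370 (188378_s_at) held in 19 of 34. It was lost at 0.55 with an intensity trend and robust settings, with only the genotypes compared and with the replicate block by title number (adjusted p = 0.0589, 0.251 and 0.0683), at 0.51 with the block by alternative sample name (0.117), 0.53 with a 3' minus 5' covariate (0.0614), 0.51 without the 3 low-sperm arrays (0.0921), 0.39 with the intestine covariate (0.417) and 0.44 (0.435) without the 4 arrays of smallest range (0.183), and in 7 of 20 fits with 1 array left out, which gave 0.45 (0.449) to 0.67 over all 20. Over both alleles this probe set passed at 0.36 with centred arrays (0.3584) or cyclic loess (0.3569), 0.37 with array weights (0.3682) or the interquartile range covariate (0.3713), 0.44 (0.4362) with sperm and oocyte covariates. With 1 array left out it was 0.30 to 0.41 and passed in 4 of 20 fits. Between alleles with *daf-16* it passed at -0.60 with loess, -0.61 with weights, and -0.53 with sperm and oocyte covariates. With 1 array left out it was -0.71 to -0.49 and passed in 4 of 20 fits. The other *ftn-2* probe set passed at 0.60, 0.62 and 0.57 over both alleles and at 0.79, 0.70 and 0.63 in e1370 with weights, with sperm and oocyte covariates and with the interquartile range covariate, and with weights also at 0.41 in m577 and -0.63 between alleles with *daf-16*. With the replicate block as an exact sign-flip test of 5 pairs, whose smallest p is 0.0625, the ferritin ratio changes of -6.02, -5.06 and 0.995 had an adjusted p of 0.0833. The allele difference of the ratio change was -0.82 (exact permutation p = 0.0676) with the other *ftn-2* probe set. Same-numbered arrays deviated together in some pairs only. By title number 14 of 30 pairs had r over 0.1 (-0.538 to 0.815), and by alternative name 9 of 20 (-0.604 to 0.765). Between the e1370 strains r was 0.815 for replicate 2 and 0.519 for replicate 5, but -0.308 for replicate 4. The numbers were not taken as pairs in the main fit, and whether some arrays belong together was not settled. Called probe sets numbered, over both alleles, 3390 with weights, 699 with the alternative-name block and 643 with the 3' minus 5' covariate, and 507 in e1370 with only its genotypes. In m577 they numbered 6645 with weights, 780 with only its genotypes, 105 with the alternative-name block, 58 with the 3' minus 5' covariate, 685 with the interquartile range covariate, 1034 with the intestine covariate, 856 without the smallest-range arrays and 257 to 527 with 1 array left out. For the allele difference in the *daf-16* effect they were 1113, 6 and 16 with weights, alternative-name block and 3' minus 5' covariate, 111 with sperm and oocyte covariates, 83 with the intestine covariate and 24 to 71 with 1 array left out. Between alleles with *daf-16* they were 2611 with weights, 176 with only those genotypes, 30 with the alternative-name block, 1438 with sperm and oocyte covariates, 515 with the interquartile range covariate, 126 with the intestine covariate and 121 to 695 with 1 array left out. Between alleles without *daf-16* they were 99 with weights, 3 with the title block, with sperm and oocyte covariates or with the intestine covariate, 9 with the interquartile range covariate, 4 without the smallest-range arrays, 0 with loess, only those genotypes, the alternative-name block or the 3' minus 5' covariate, and 0 to 5 with 1 array left out. The covariates for interquartile range and intestine, and leaving out smallest-range arrays, were chosen after seeing the data. The cause of these shifts was not tested. *smf-2* and 175864_at lie at background, where no change could be seen.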
